A study of Mus musculus with 16 samples.

Results

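The genes described are 33 genes of cholesterol synthesis, uptake and export, taken by a fixed list of symbols, with no threshold on a measured value, from the 52636 genes counted in mouse dorsal root ganglia (DRGs), the clusters of sensory neuron cell bodies beside the spinal cord. They comprise 9 genes of the mevalonate arm of synthesis, 9 genes of the sterol arm, 5 sterol-sensing genes, 4 genes of uptake and transport, and 6 genes of export and storage. All 33 were found, and all 33 were among the 21371 genes that passed the filter on low counts. The lowest count of any of them in any library was 305 reads, for Nr1h3.

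Lumbar DRGs (L3 to L6) came from male C57BL/6J mice aged 3 to 4 months, with 4 mice in each of 4 groups. Mice had tibial-sparing spared nerve injury (SNI), in which the common peroneal and sural branches of the left sciatic nerve are tied and cut, or sham surgery. From 4 weeks after surgery, by the series design, they received desipramine (DMI), a tricyclic antidepressant that blocks noradrenaline reuptake, at 15 mg/kg intraperitoneally 2 times a day, or saline, for 3 weeks. The methods of the study instead place the start of treatment 4 months after surgery. Sham-Saline mice thus had neither injury nor drug, SNI-Saline mice the injury alone, Sham-DMI mice the drug alone, and SNI-DMI mice both. The SNI ganglia hold cut and spared neurons together, and the counts do not separate them.

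Animal cells build cholesterol from acetyl-CoA. The mevalonate arm makes isoprenoid units and joins them into squalene, and the sterol arm closes squalene into lanosterol and trims it to cholesterol. When membranes of the endoplasmic reticulum are poor in sterol, SCAP escorts the transcription factor SREBP-2 to the Golgi, where it is cut and freed to switch on the synthesis genes, while the INSIG proteins hold SCAP back when sterol is plentiful. Surplus cholesterol is esterified by SOAT1 or handed by ABCA1 and ABCG1 to carriers such as apolipoprotein E, under control of the LXR receptors (Nr1h2 and Nr1h3), which sense oxidised sterols. In peripheral nerve, myelin is the large store of cholesterol, and glia supply neurons with lipoprotein particles that carry apolipoprotein E.

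Promoter sequences are shown for 5 genes, all of synthesis except the export gene Abca1, because the synthesis genes share a regulatory logic. As counted, Mvd, Ebp and Cyp51 were higher with DMI, Abca1 was lower, and Hmgcs1, a textbook SREBP target, did not pass the test. With trends on GC content and length removed (described below), Hmgcs1 was called higher too (log2 0.14, adjusted p = 0.00515, edgeR). Its difference from the other synthesis genes thus depends on the fit. Each run holds the 250 bases before the RefSeq start site on the gene's own strand (GRCm38.p6), in lower case, with capitals for matches to CCAAT (the box bound by NF-Y, which reads ATTGG on the other strand), to TCACNCCAC (the letters of a sterol regulatory element) or to CACGTG (an E-box), each searched on both strands. No match overlaps another in these 5 sequences. They lie at chr13:119690101-119690350 on the plus strand for Hmgcs1, and on the minus strand at chr8:122443423-122443672 for Mvd, chrX:8193513-8193762 for Ebp, chr5:4104698-4104947 for Cyp51 and chr4:53159896-53160145 for Abca1.
Hmgcs1: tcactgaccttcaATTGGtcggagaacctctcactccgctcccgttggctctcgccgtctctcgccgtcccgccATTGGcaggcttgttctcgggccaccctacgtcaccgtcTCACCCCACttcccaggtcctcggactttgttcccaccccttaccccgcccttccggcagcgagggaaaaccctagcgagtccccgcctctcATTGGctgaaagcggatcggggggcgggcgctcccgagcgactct
Mvd: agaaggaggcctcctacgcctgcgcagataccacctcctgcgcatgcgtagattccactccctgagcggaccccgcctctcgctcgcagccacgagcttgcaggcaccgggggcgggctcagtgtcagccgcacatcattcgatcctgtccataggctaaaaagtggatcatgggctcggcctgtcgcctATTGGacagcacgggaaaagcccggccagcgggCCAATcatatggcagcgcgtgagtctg
Ebp: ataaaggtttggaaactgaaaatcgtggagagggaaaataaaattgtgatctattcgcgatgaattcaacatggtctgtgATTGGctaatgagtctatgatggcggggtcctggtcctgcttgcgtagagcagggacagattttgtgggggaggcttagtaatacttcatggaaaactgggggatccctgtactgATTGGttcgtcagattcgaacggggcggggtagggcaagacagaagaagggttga
Cyp51: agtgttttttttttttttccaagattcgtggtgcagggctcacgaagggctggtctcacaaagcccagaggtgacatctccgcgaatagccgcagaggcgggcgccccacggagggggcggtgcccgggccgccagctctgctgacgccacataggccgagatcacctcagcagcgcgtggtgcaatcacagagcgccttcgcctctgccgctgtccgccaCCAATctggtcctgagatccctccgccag
Abca1: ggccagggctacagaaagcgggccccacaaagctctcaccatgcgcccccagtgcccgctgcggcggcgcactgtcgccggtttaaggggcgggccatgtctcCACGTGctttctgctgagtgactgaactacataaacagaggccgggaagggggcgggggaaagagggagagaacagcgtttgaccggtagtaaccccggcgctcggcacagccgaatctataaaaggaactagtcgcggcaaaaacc

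Hmgcs1 holds the element letters at -137 from the start site with CCAAT at -237, -176 and -45. Mvd has CCAAT at -60 and -27, Ebp at -170 and -55, and Cyp51 at -29, whereas Abca1 holds an E-box at -147 and no CCAAT. Over windows of 300 bases (the same 250 bases and the next 50), 38 promoters of 27 of the 33 genes were in the RefSeq table, and Fdps, Fdft1, Sqle, Stard4, Npc1 and Abcg1 had no entry. CCAAT, on either strand, stood in 21 of the 38 promoters (55.3%), against 37.4% of all 32851 promoters. By gene, it stood in 14 of the 15 synthesis genes with an entry and in 6 of the 12 other genes. The 37.4% counts promoters, and the share by gene over all genes was not worked out, here or for the called genes below. CACGTG was in 7 of the 38 (18.4%, against 7.15% of all) and TCACNCCAC in 1, that of Hmgcs1 (2.63%, against 1.24% of all). AGGTCA repeated after a gap of 4 bases, the letters of an LXR site, was in 0 (against 0.0152% of all). That search took only the exact letters, which 5 of all 32851 promoters held, so its 0 cannot tell whether these genes have LXR sites. Forms that differ by a base were not searched for, in Abca1 or any other gene. Of the genes called higher with DMI in the next comparison, 6 of 9 with an entry held CCAAT, as did 2 of the 3 called lower and 12 of the 15 not called.

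Libraries held 41194238 to 73920332 reads on genes, and the intervals given for these genes cover counting error together with the spread between mice. The labels give dorsal root ganglia as the cell type but spinal cord as the tissue. The summed level of 16 sensory neuron markers was 15200 to 19100 CPM (reads on the gene, scaled to a common library size) in the 16 libraries, and that of 10 oligodendrocyte and spinal cord markers was 11.9 to 37.8 CPM. Library numbers ran in blocks of 4 by group (17 to 20 for Sham-DMI, 21 to 24 for SNI-DMI, 33 to 36 for SNI-Saline and 37 to 40 for Sham-Saline), so any effect of handling order and the effect of the group cannot be told apart. In bulk RNA, fewer cells of a type and less RNA per cell cannot be told apart either.

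Compared per kilobase of exon, these genes were well expressed in the DRG. Apoe, the lipoprotein carrier, stood highest at a mean level of 800 CPM per kb over the 16 libraries, and the next were 2 mevalonate-arm genes, Hmgcs1 at 117 and Fdft1 (squalene synthase) at 79.9 CPM per kb. Pmvk, Sqle, Acat2 and Mvd followed at 54.8, 47, 45.3 and 42.2 CPM per kb. Mevalonate-arm genes filled 6 of the first 7 places, but Idi1 and Fdps of the same arm stood near the end of the order, at 7.61 and 7.19 CPM per kb. The exon length used is that of all annotated exons of a gene together. It can exceed the length of the main transcript and so lower a gene's place in the order. Srebf2, at 41.7 CPM per kb, was above Srebf1 at 18.3, and Nr1h2 at 23 was above its relative Nr1h3, the lowest of all at 2.75 CPM per kb. The last 3 genes (Npc1 at 5.71, Soat1 at 3.64 and Nr1h3) still lay at the 63.6th, 54.9th and 50th percentile of all genes tested. Cyp51, Insig1 and Sc5d, neighbours at 37.2, 36.8 and 36.6 CPM per kb, differed by less than the SD between Sham-Saline mice (2.58, 1.04 and 1.4).

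**Figure D1:**
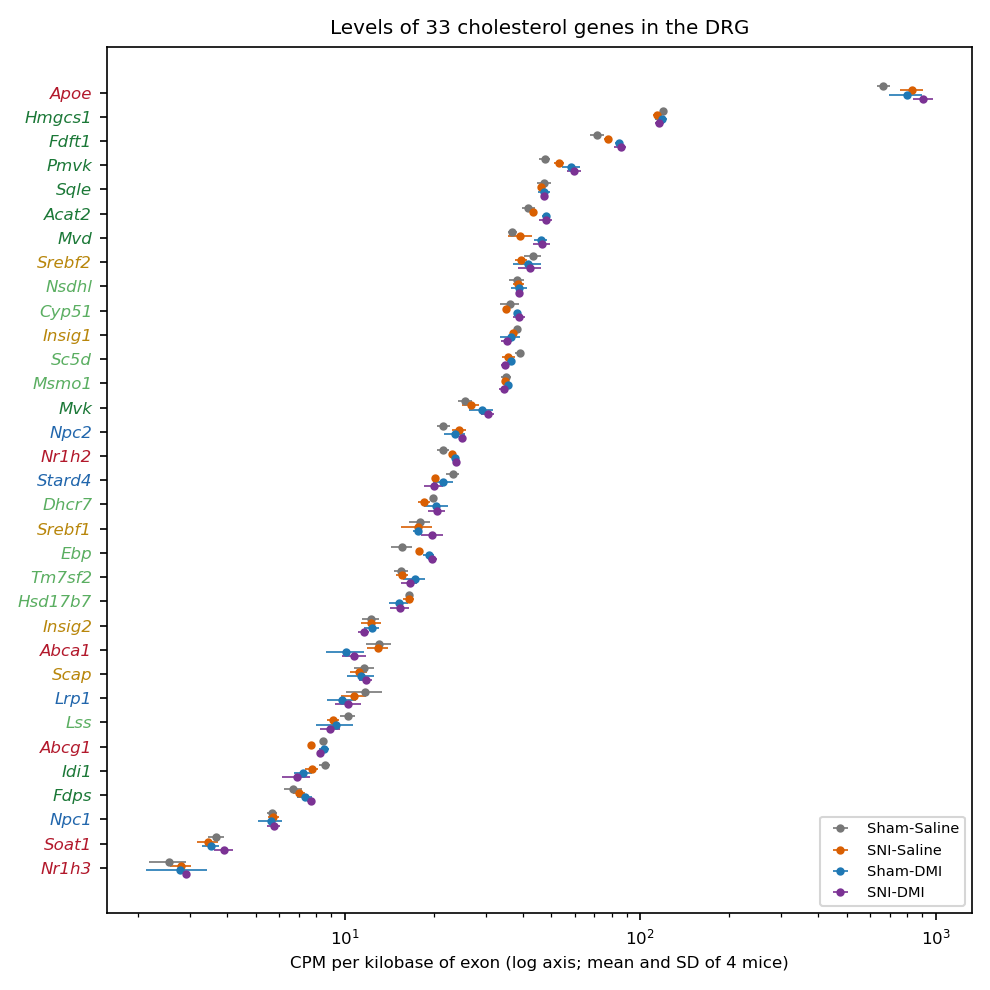
Level of each of the 33 genes in CPM per kilobase of exon (log axis), as the mean and SD of the 4 mice in each group, in descending order of the mean over all 16 libraries; label colours mark the roles. Apoe stands alone at 800 CPM per kb, most synthesis genes lie between 10 and 100, and the spacing between genes is far wider than the spacing between groups.

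Averaged over both surgeries, DMI was accompanied by higher levels of most genes of the mevalonate arm and of part of the sterol arm, and by a lower level of the efflux pump Abca1. A gene was called when its adjusted p (edgeR's quasi-likelihood test, Benjamini-Hochberg over all 21371 genes) was under 0.1. By this rule 14 of the 33 genes (42.4%) were called, 11 higher and 3 lower, beside 30.6% of all genes tested (14.8% higher and 15.8% lower). The mevalonate arm had 7 of 9 genes called, 6 higher and 1 lower, the sterol arm 4 of 9, 3 higher and 1 lower, and export and storage 3 of 6, 2 higher and 1 lower. None of the 5 sterol-sensing genes and none of the 4 uptake and transport genes were called. The differences were small, with a largest rise of 21.6% (Mvd), and 0 of the 33 met the cut-offs for differentially expressed genes of the study (an unadjusted p under 0.05 with a log2 fold change of 0.32 or more in size), which 8.74% of all genes met. Abca1 lay just short of them, at -0.317 before rounding. The median log2 fold change was 0.058 over the 33 genes and 0.103 over the 18 synthesis genes, against -0.013 over all genes.

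Mvd, mevalonate diphosphate decarboxylase, which makes isopentenyl diphosphate (chromosome 8, 122433601 to 122443422, minus strand, GRCm38), had the smallest p-value of the 33. Its level was 72.1, 67.8, 68 and 66.8 CPM in the Sham-Saline mice, 73.8, 82.2, 66.9 and 68.9 in SNI-Saline, 90.2, 88.5, 83.7 and 80.2 in Sham-DMI, and 83.8, 90.8, 91.6 and 79.5 in SNI-DMI. All 4 Sham-DMI mice stood above the sham controls, and under SNI only 1 saline mouse, at 82.2, reached into the DMI range. The log2 fold change over both surgeries was 0.28 ± 0.0453 (SE), with an adjusted p of 0.000672.

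Pmvk, phosphomevalonate kinase, which acts just before Mvd (chromosome 3, 89454541 to 89469013, plus strand), was at 81.6, 84, 76.7 and 83.9 CPM with saline and 109, 92.8, 97.3 and 102 with DMI under sham surgery, and 96, 92.2, 88.4 and 87.6 with saline and 96.1, 105, 109 and 100 with DMI under SNI. Within each surgery the DMI mice lay above the saline mice although only just in SNI. It rose by 17.6% (log2 0.23 ± 0.039, adjusted p = 0.000808). Mvk, mevalonate kinase, the kinase before Pmvk, was at 63.4, 69, 68.7 and 72.5 CPM in the Sham-Saline mice against 88.5, 76.9, 72.6 and 73.4 in the Sham-DMI mice, and 73.4, 76.9, 67.5 and 68 in the SNI-Saline mice against 77.3, 86.9, 83 and 79.2 in the SNI-DMI mice. Its rise of 14% (log2 0.19 ± 0.0464, adjusted p = 0.00758) likewise left no overlap within either surgery.

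Fdft1, which joins farnesyl units into squalene (chromosome 14, 63145150 to 63179578, minus strand), gave 325, 299, 283 and 303 CPM with saline and 372, 351, 350 and 358 with DMI under sham surgery, and 338, 334, 322 and 319 with saline and 351, 373, 381 and 346 with DMI under SNI. Acat2, the cytosolic thiolase that opens the pathway (chromosome 17, 12942890 to 12960747, minus strand), gave 111, 104, 99.9 and 110 CPM in the Sham-Saline mice against 126, 124, 117 and 121 in the Sham-DMI mice, and 109, 112, 110 and 110 in the SNI-Saline mice against 116, 125, 129 and 117 in the SNI-DMI mice. For both genes all 8 DMI mice stood above all 8 saline mice. Fdft1 rose by 14.3% (log2 0.19 ± 0.0342, adjusted p = 0.00112) and Acat2 by 12.6% (log2 0.17 ± 0.0334, adjusted p = 0.00189). Exons of Fdft1 overlap those of Ctsb on the opposite strand, a gene with 1441536 reads over the 16 libraries, and the use of strand in the counting is not given in the sources used here, so the value of Fdft1 is uncertain to that extent. Fdps, farnesyl diphosphate synthase, ranged from 26.9 to 31.4 CPM in the saline mice and 28.4 to 33.2 in the DMI mice, and was called higher at 9.27% (adjusted p = 0.0364).

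Not all of the arm followed. Idi1, which isomerises isopentenyl diphosphate between Mvd and Fdps, was at 31.7, 29, 30.2 and 29.1 CPM with saline and 22.7, 26.4, 25.6 and 26.7 with DMI under sham surgery, and 26.4, 26, 29.2 and 26.9 with saline and 20.9, 23.3, 26.4 and 26.1 with DMI under SNI. It fell by 13.2% (log2 -0.20 ± 0.0518, adjusted p = 0.00925), with no overlap between the sham groups. Hmgcs1, the synthase before the rate-limiting step, was at 555, 547, 541 and 559 CPM in the Sham-Saline mice against 514, 556, 570 and 530 in the Sham-DMI mice, and 540, 500, 521 and 541 in the SNI-Saline mice against 516, 526, 556 and 537 in the SNI-DMI mice. The DMI mice overlapped the saline mice, and the DMI difference was 0.00 on the log2 scale, with a 95% interval of -0.07 to 0.07. Sqle, squalene epoxidase, which makes the substrate of the sterol arm, was at 273, 243, 261 and 272 CPM with saline and 249, 279, 264 and 261 with DMI under sham surgery, and 265, 257, 255 and 250 with saline and 254, 261, 265 and 268 with DMI under SNI. Its DMI difference was 0.02, with an interval of -0.05 to 0.09.

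In the sterol arm, Ebp, the sterol isomerase (chromosome X, 8185329 to 8193512, minus strand), was at 34.7, 37.1, 32.9 and 39.5 CPM in the Sham-Saline mice against 44.8, 42.5, 43.7 and 47 in the Sham-DMI mice, and 41.9, 41.2, 41.7 and 40.6 in the SNI-Saline mice against 43.6, 47.1, 46.6 and 45.7 in the SNI-DMI mice. It rose by 16.8% (log2 0.22 ± 0.0386, adjusted p = 0.000953), and again no saline mouse reached the DMI mice. Acat2, Fdft1 and Ebp were the 3 of 33 genes in which all 8 DMI mice were above all 8 saline mice, which held for 0.566% of all genes tested, and 0 of the 33 showed the reverse (0.379% of all genes). Cyp51, the lanosterol demethylase, was at 174, 164, 155 and 148 CPM with saline and 172, 172, 164 and 169 with DMI under sham surgery, and 159, 154, 155 and 153 with saline and 162, 169, 181 and 176 with DMI under SNI. The sham groups overlapped and the SNI groups did not, and the rise was 8.08% (adjusted p = 0.0297). Exons of Cyp51 overlap those of Akap9 on the opposite strand (123609 reads), which makes its value uncertain in the same way, as do Rai1 for Srebf1 and Rmc1 for Npc1.

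Tm7sf2, a sterol reductase whose exons overlap those of Vps51 on the same strand, rose by 8.62% (adjusted p = 0.0633), a call that was lost without SNI-Saline replicate 4, Sham-DMI replicate 1 or SNI-DMI replicate 2 (adjusted p of 0.127, 0.105 and 0.143). Hsd17b7, the ketosteroid reductase, was called lower at -0.11 ± 0.0412 (adjusted p = 0.068), but the call was kept in only 4 of the 16 fits that left out 1 library (those without SNI-DMI 1, Sham-DMI 2, Sham-Saline 2 or Sham-Saline 4). The other 5 genes of the arm did not pass the test. Msmo1 (methylsterol oxidase) had a log2 difference of 0.00 with an interval of -0.06 to 0.07 and Nsdhl (sterol dehydrogenase) 0.02 with an interval of -0.06 to 0.09. For Lss (lanosterol synthase), Sc5d (sterol desaturase) and Dhcr7 (the last reductase) the values were -0.08, -0.07 and 0.09.

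**Figure D2:**
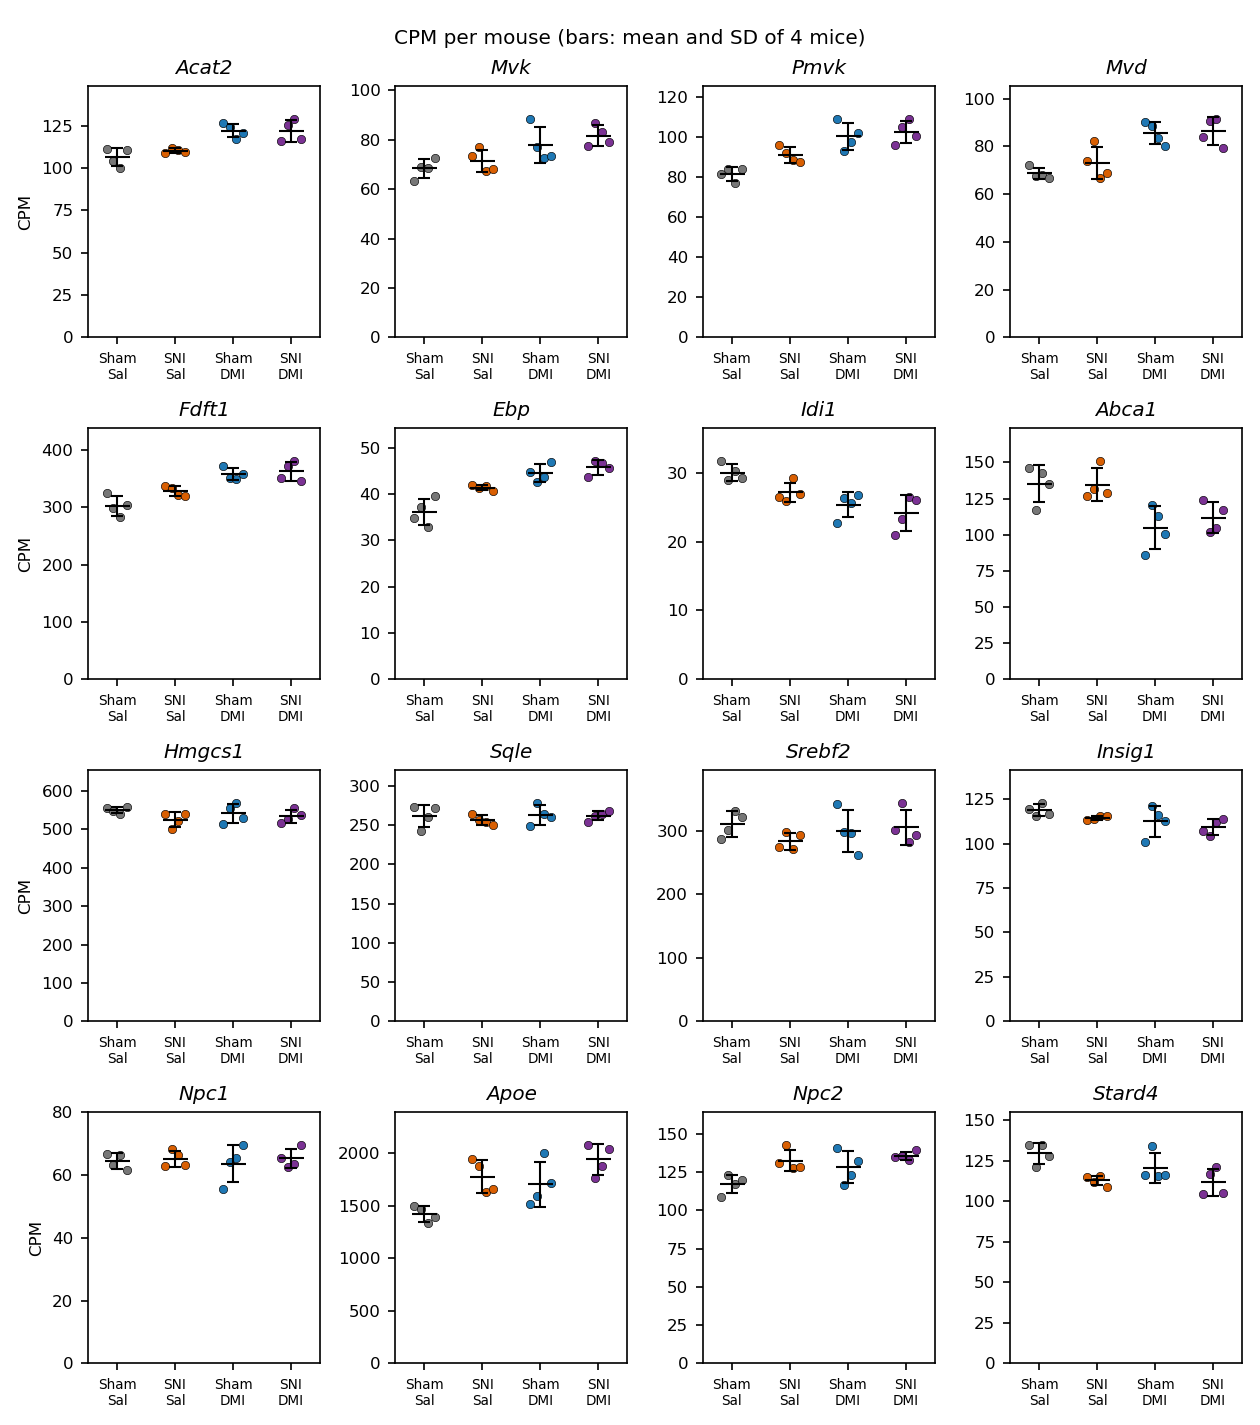
CPM of 16 of the genes in each mouse (axes from 0), for both saline groups and then both DMI groups, with bars for the mean and SD of 4 mice in each. The DMI mice sit above the saline mice for Acat2, Fdft1 and Ebp without overlap, below most of them for Abca1, and among them for Hmgcs1, Sqle, Srebf2, Insig1 and Npc1.

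The sterol-sensing genes gave no calls with DMI. Srebf2, which encodes SREBP-2, was at 288, 302, 332 and 322 CPM in the Sham-Saline mice against 341, 298, 297 and 262 in the Sham-DMI mice, and 274, 297, 271 and 293 in the SNI-Saline mice against 301, 344, 282 and 293 in the SNI-DMI mice. Its groups overlapped, and the difference over both surgeries was 0.03 (interval -0.09 to 0.14). Insig1, itself an SREBP target that restrains the pathway, was at 120, 116, 123 and 117 CPM with saline and 101, 121, 116 and 112 with DMI under sham surgery, and 113, 114, 116 and 116 with saline and 107, 104, 112 and 114 with DMI under SNI. The difference was -0.07 (interval -0.15 to 0.00, adjusted p = 0.166). Insig2, Srebf1 and Scap had values of -0.04, 0.07 and 0.02.

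Among uptake and transport genes, Npc1, the membrane protein that moves cholesterol out of lysosomes, was at 66.7, 63.2, 66.4 and 61.7 CPM in the Sham-Saline mice against 55.4, 64, 65.5 and 69.6 in the Sham-DMI mice, and 62.8, 68.1, 66.2 and 63 in the SNI-Saline mice against 65.4, 62.4, 63.6 and 69.6 in the SNI-DMI mice. The Sham-DMI mice spanned the ranges of the other groups, and the difference with DMI was -0.01 (interval -0.10 to 0.08). Npc2, its soluble partner in the lysosome, had 0.08 (adjusted p = 0.162), Stard4, a cytosolic sterol carrier, -0.06, and Lrp1, a receptor for particles with apolipoprotein E, -0.16 (interval -0.31 to -0.01, adjusted p = 0.109).

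Of the export and storage genes, Abca1, which loads cholesterol onto apolipoproteins (chromosome 4, 53030787 to 53159895, minus strand), was at 146, 117, 142 and 135 CPM with saline and 86.1, 121, 113 and 100 with DMI under sham surgery, and 127, 132, 151 and 129 with saline and 124, 102, 105 and 117 with DMI under SNI. Under SNI all DMI mice were below all saline mice, and under sham 1 control mouse, at 117, lay below 1 DMI mouse. It fell by 19.7% (log2 -0.32 ± 0.0678, adjusted p = 0.0034), the largest change of the 33 genes on the log2 scale. Apoe (chromosome 7, 19696109 to 19699188, minus strand) was at 1490, 1470, 1330 and 1390 CPM in the Sham-Saline mice against 1510, 1590, 2000 and 1720 in the Sham-DMI mice, and 1950, 1880, 1630 and 1650 in the SNI-Saline mice against 2080, 1760, 1880 and 2040 in the SNI-DMI mice. The groups stood apart under sham and overlapped under SNI. It rose by 14.4% with DMI (log2 0.19 ± 0.0584, adjusted p = 0.0231).

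Nr1h2, which encodes LXR-beta, was at 69.4, 74.9, 76 and 69.2 CPM with saline and 80.5, 78.9, 77.3 and 79.6 with DMI under sham surgery, and 78.5, 77.1, 76.5 and 77 with saline and 82, 80.5, 79.1 and 79 with DMI under SNI. The groups were narrow and did not overlap within either surgery, and the rise was 6.48% (adjusted p = 0.0317). Abcg1, the partner pump, was not called at 0.06 (interval 0.00 to 0.12), nor were Nr1h3 (LXR-alpha) at 0.09 and Soat1, which esterifies cholesterol, at 0.06.

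Markers of other cell types were read beside these values, against the 30.6% of all genes called for DMI over both surgeries. The summed level of 12 Schwann cell and myelin markers was 4520 to 6640 CPM among Sham-Saline mice and 6070 to 7390 among SNI-Saline mice, against 4180 to 7350 with DMI under sham and 5110 to 6410 with DMI under SNI, with 1 of the 12 genes (8.33%) called, lower. For 8 satellite glia markers the ranges were 1400 to 1680, 1390 to 1730, 1220 to 2040 and 1660 to 1990 CPM in the same order, with 2 called higher and 1 lower (37.5%). Of 9 neutrophil markers, 7 (77.8%) were called lower with DMI, their summed level being 11.6 to 43.3 (sham) and 17.8 to 54.8 CPM (SNI) with saline, and 4.55 to 20.1 (sham) and 5.46 to 15.3 CPM (SNI) with DMI. Of 16 sensory neuron markers, 6 were called higher and 1 lower (43.8%). Of 10 markers of injured neurons, 7 (70%) were called higher with DMI, and their summed level was 312 to 344 (sham) and 563 to 632 CPM (SNI) with saline, and 375 to 419 (sham) and 571 to 790 CPM (SNI) with DMI. Markers called lower were also found for endothelium (3 of 7 tested), oligodendrocytes and spinal cord (2 of 5), B cells (2 of 5), macrophages (2 of 10), and T and NK cells, red cells and fibroblasts (1 each of 7, 6 and 6), with 0 called higher in these lists, and mural cells, adipocytes and skeletal muscle had 0 called. The summed skeletal muscle markers varied widely between mice. They were at 268 CPM in SNI-DMI replicate 2, 75.9 in SNI-Saline replicate 2 and 49 in Sham-Saline replicate 1, against 2.09 to 17.8 in the other libraries. No marker was at 0 in all libraries, and the part of these cell types in the values of the cholesterol genes was not tested.

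With sham surgery, the effect of DMI on these genes was called more often than with SNI. In Sham-DMI against Sham-Saline 11 of 33 genes (33.3%) were called, 8 higher and 3 lower, beside 23.4% of all genes (11.6% higher and 11.9% lower). Mvd (0.32 ± 0.0641, adjusted p = 0.00424), Ebp (0.30 ± 0.0546, adjusted p = 0.00264) and Pmvk (0.30 ± 0.0552, adjusted p = 0.00295) rose most, followed by Apoe at 0.26, Fdft1 at 0.24, Acat2 at 0.20, Mvk at 0.19 and Nr1h2 at 0.13. Abca1 fell by 22.4% (log2 -0.37 ± 0.096, adjusted p = 0.0157), Idi1 by 15.5% (adjusted p = 0.0308) and Lrp1 by 16.3% (adjusted p = 0.0853). Abca1 was the only 1 of the 33 past the cut-offs of the study, which 11.5% of all genes passed, and Mvd lay just short of them at 0.319 before rounding. That count was 2 to 4 without any of Sham-Saline 3 or 4, SNI-Saline 1 or 2, Sham-DMI 2, 3 or 4, or SNI-DMI 1, 3 or 4 (numbers are replicates). Among the 33 genes, 8 were higher and 2 lower in every Sham-DMI mouse than in every control (8.62% and 8.51% of all genes). The count of calls was 8 to 13 when 1 library was left out, and some calls rested on 1 library: Idi1 on Sham-DMI 1 (-0.18, adjusted p = 0.139 without it), Mvk on the same mouse and on Sham-Saline 1 (adjusted p of 0.164 and 0.119), Apoe on Sham-DMI 3 (0.19, adjusted p = 0.104) and Nr1h2 on Sham-Saline 4 (adjusted p = 0.12), while Lrp1 kept its call in 6 of 16 such fits.

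In SNI-DMI against SNI-Saline 1 of the 33 genes (3.03%) was called, beside 2.93% of all genes (1.32% higher and 1.61% lower). This was Mvd, at 0.24 ± 0.064 (adjusted p = 0.0829). Values for the others were 0.19 for Mvk, 0.17 for Pmvk, 0.15 for both Acat2 and Ebp, 0.14 for both Fdft1 and Cyp51, and -0.27 for Abca1, with adjusted p of 0.122 to 0.168. In 8 genes every SNI-DMI mouse was above every SNI-Saline mouse and in 1, Abca1, below (7.33% and 5.97% of all genes), and 0 passed the cut-offs of the study (5.73% of all genes). The count depended on the fit: it was 7 (6 higher and 1 lower) with DESeq2, 8 (7 higher and 1 lower) with only the 8 libraries of the comparison, 0 without any of Sham-Saline 2 or 4, SNI-Saline 1, 3 or 4, or SNI-DMI 1, 2 or 3, and 3, 4, 5 and 7 without SNI-Saline 2, Sham-Saline 1, Sham-DMI 2 and Sham-DMI 1.

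The DMI effects under SNI and sham were not shown to differ for any of the genes. The test of the difference itself called 0 of 33 genes and 0 of all genes with edgeR, and DESeq2 called 16 genes in all and none of the 33. At an unadjusted p under 0.05 in the edgeR fit there was 1 of the 33 genes, beside 1692 of all genes (7.92%). This was Soat1, with a difference of 0.23 ± 0.0999 and an adjusted p of 0.619. Soat1 was 0.18 under SNI and -0.05 under sham. For Ebp the difference was -0.16 with an interval of -0.32 to 0.00.

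**Figure D3:**
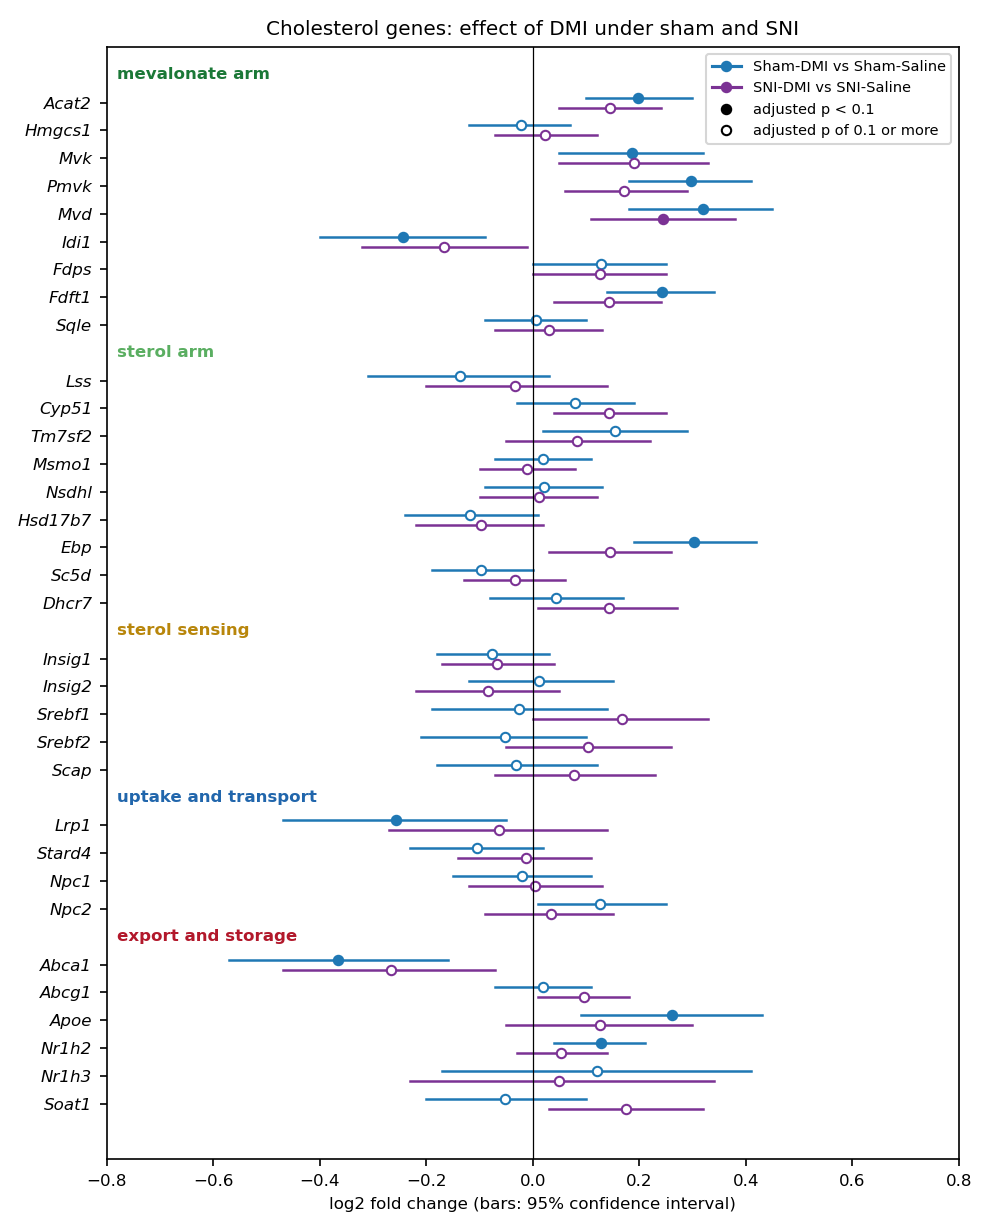
Log2 fold change with DMI for each gene under sham (blue) and SNI (purple), grouped by role, with 95% confidence intervals and filled points for an adjusted p under 0.1. The sham and SNI intervals overlap for every gene, and 11 points under sham and 1 under SNI are filled.

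The DMI values differed with the GC content and length of the genes. The 11 genes called higher for DMI over both surgeries had a median GC content of 51.8% (46.2% to 60.6%) and a median exon length of 2675 bases, the 3 called lower 43.9% (41.9% to 47.5%) and 5104 bases, and the 19 not called 48.6% and 5634 bases, against 49.4% and 3404 bases for all genes tested. When the trend of each library on GC content and exon length was removed, 18 of the 33 genes were called, 17 higher and 1 lower, beside 22.7% of all genes. The balance of the whole transcriptome shifted as well, from 48.3% of calls being higher to 76.1%, with a median over all genes of 0.029. The calls of Mvd, Pmvk, Ebp, Fdft1, Acat2, Mvk, Fdps, Tm7sf2, Cyp51 and Abca1 were kept, with log2 values of 0.21, 0.16, 0.21, 0.20, 0.17, 0.14, 0.15, 0.14, 0.19 and -0.22. Idi1 (-0.06, adjusted p = 0.404), Apoe (0.13, adjusted p = 0.217) and Nr1h2 (0.05, adjusted p = 0.33) lost theirs, and Hsd17b7 turned to 0.02 (adjusted p = 0.737).

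Genes not called as counted were called after this removal. Soat1 (0.21, adjusted p = 0.00236), Hmgcs1 (0.14, adjusted p = 0.00515), Msmo1 (0.12, adjusted p = 0.00965), Npc1 (0.12, adjusted p = 0.0369), Sc5d (0.08, adjusted p = 0.0577), Npc2 (0.11, adjusted p = 0.0767), Dhcr7 (0.11, adjusted p = 0.0829) and Abcg1 (0.08, adjusted p = 0.0842) were then called higher. Of these, Dhcr7, Npc2 and Abcg1 were also called as counted in 6, 3 and 2 of the 16 fits that left out 1 library. With sham surgery the same step gave 15 calls, 14 higher and 1 lower, beside 19.3% of all genes, and the share of all calls that were higher went from 49.4% to 81%. Of the 11 sham calls, Idi1 (-0.08, adjusted p = 0.441), Lrp1 (-0.14, adjusted p = 0.297) and Apoe (0.22, adjusted p = 0.142) were then lost. Under SNI that share went from 45% to 90.2% of far fewer calls (51 genes in all), and the 1 gene called was Soat1 (0.29) in place of Mvd (0.15, adjusted p = 0.293).

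**Figure D4:**
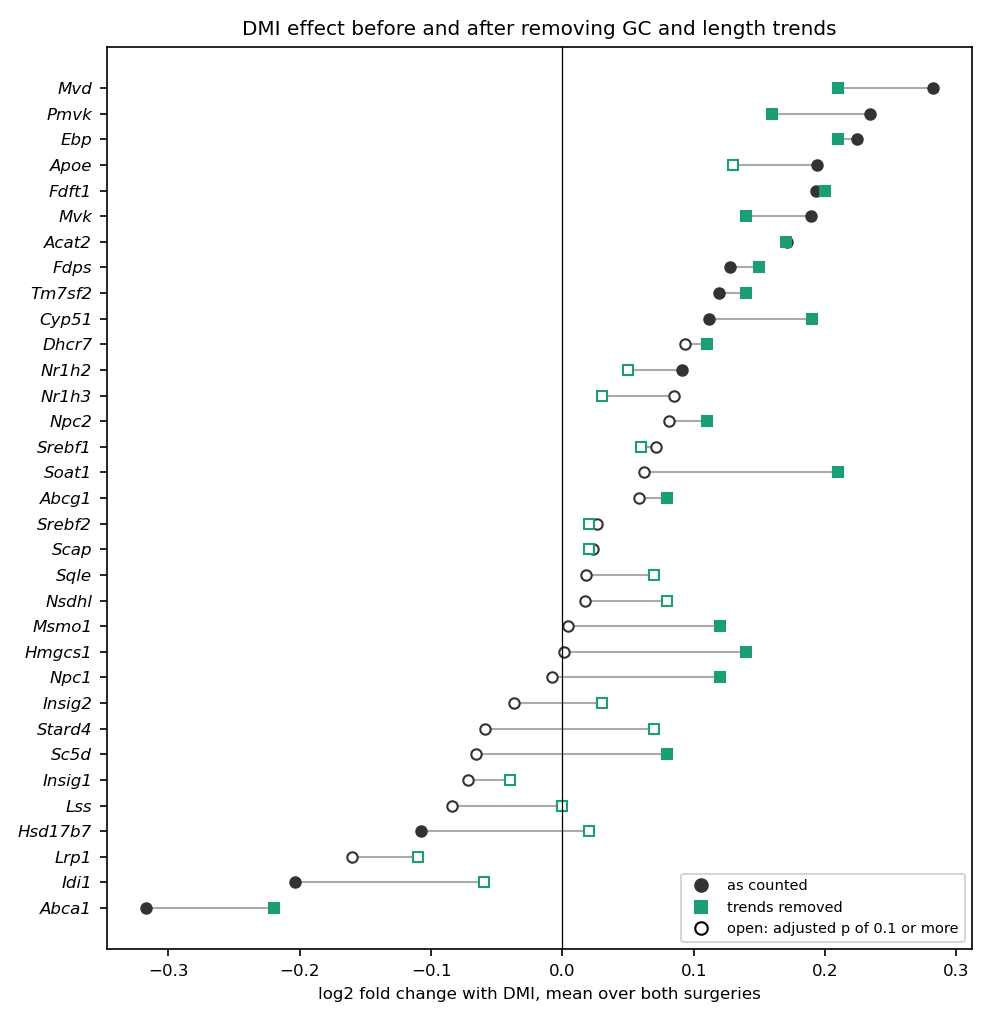
Log2 fold change with DMI over both surgeries for each gene as counted (dark circles) and after the trends of each library on GC content and exon length were removed (green squares); open symbols have an adjusted p of 0.1 or more. Mvd, Pmvk, Ebp, Fdft1, Mvk and Acat2 stay filled on the right, Abca1 on the left, and Soat1, Hmgcs1, Msmo1 and Npc1 move right and become filled.

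Nerve injury without drug was accompanied by calls in a minority of these genes, without a common direction. Their share was above that of all genes, but none was kept once the GC content and length trends were removed. In SNI-Saline against Sham-Saline 7 of the 33 (21.2%) were called, 4 higher and 3 lower, beside 12% of all genes (5.85% higher and 6.18% lower), and the median was -0.007 against -0.001 over all genes. Apoe rose by 25% (log2 0.32 ± 0.0826, adjusted p = 0.0341), and it alone passed the cut-offs of the study, which 7.15% of all genes passed. Ebp (0.20 ± 0.0546, adjusted p = 0.0441), Npc2 (0.18 ± 0.0569, adjusted p = 0.0736) and Pmvk (0.16 ± 0.0552, adjusted p = 0.0916) were also higher. Npc2 was at 109 to 123 CPM in the sham controls and at 128 to 143 after SNI. Stard4 was at 135, 121, 135 and 128 CPM in the sham controls and 115, 112, 115 and 109 after SNI without drug, and with DMI it was at 116, 134, 116 and 116 (sham) and 105, 117, 121 and 105 (SNI). It fell by 13% with injury (log2 -0.20 ± 0.0595, adjusted p = 0.0549), the saline groups standing apart. Sc5d and Abcg1 were both lower at -0.13 (adjusted p of 0.0937 and 0.0788). In all, 5 genes were higher and 4 lower in every SNI-Saline mouse than in every sham control (7.67% and 7.74% of all genes).

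These injury calls were close to the threshold. None of the 7 was kept after the trends on GC content and length were removed (4.89% of all genes were called), where Apoe had 0.24 (adjusted p = 0.179) and Stard4 -0.14 (adjusted p = 0.182). The count was 0 without Sham-Saline 3, 1 without SNI-Saline 1 or SNI-Saline 2, 2 without Sham-Saline 4, 3 without Sham-Saline 1 or SNI-Saline 4, and 4 without SNI-DMI 4. Beside Apoe, the summed level of 10 macrophage markers was 110 to 132 CPM with sham surgery and 143 to 244 with SNI, with 5 of the 10 called higher, and 9 of the 10 markers of injured neurons were called higher as well. Of 12 Schwann cell and myelin markers 0 were called with injury (12% of all genes were), though the log2 fold change was positive in all 12 (median 0.258). Of 8 satellite glia markers 0 were called, with 7 values positive and 1 negative. The part of any of these cell types in the value of Apoe was not tested. Apoe was above every sham control in every SNI-Saline mouse, but its call was lost without Sham-Saline 3, SNI-Saline 1 or SNI-Saline 2 (0.31, 0.29 and 0.30, adjusted p of 0.105, 0.111 and 0.103). With DMI the macrophage level was 88.9 to 124 CPM (sham) and 115 to 223 CPM (SNI).

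Over both treatments, injury gave 6 calls of 33 (18.2%), beside 16.1% of all genes (7.71% higher and 8.43% lower). Apoe (0.25), Npc2 (0.13) and Ebp (0.12) were higher, and Stard4 (-0.15), Sc5d (-0.10) and Abcg1 (-0.09) lower. The count was 10 without Sham-DMI 1 and 3 without SNI-DMI 2. After removal of the GC and length trends only Stard4 and Abcg1 were called (10.3% of all genes were), and Apoe (0.15, adjusted p = 0.197), Npc2 (0.09, adjusted p = 0.173), Ebp (0.04, adjusted p = 0.533) and Sc5d (-0.06, adjusted p = 0.188) were not. The injury and sham DMI comparisons share the Sham-Saline mice, and for the genes called in both the values were 0.32 and 0.26 for Apoe, 0.20 and 0.30 for Ebp, and 0.16 and 0.30 for Pmvk. The injury and SNI DMI comparisons share the SNI-Saline mice, where the same genes had 0.13, 0.15 and 0.17 with DMI. SNI-DMI had the highest group mean for all of them, at 1940 ± 147 CPM for Apoe, 45.74 ± 1.57 for Ebp and 102.5 ± 5.57 for Pmvk (SD, n = 4), from 1422 ± 72.5, 36.07 ± 2.84 and 81.55 ± 3.39 in Sham-Saline. The means were 1777 ± 160, 41.36 ± 0.59 and 91.06 ± 3.86 in SNI-Saline, and 1704 ± 214, 44.5 ± 1.9 and 100.2 ± 6.9 in Sham-DMI. For Ebp and Pmvk, SNI-DMI and Sham-DMI differed by less than the SD of either group.

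**Figure D5:**
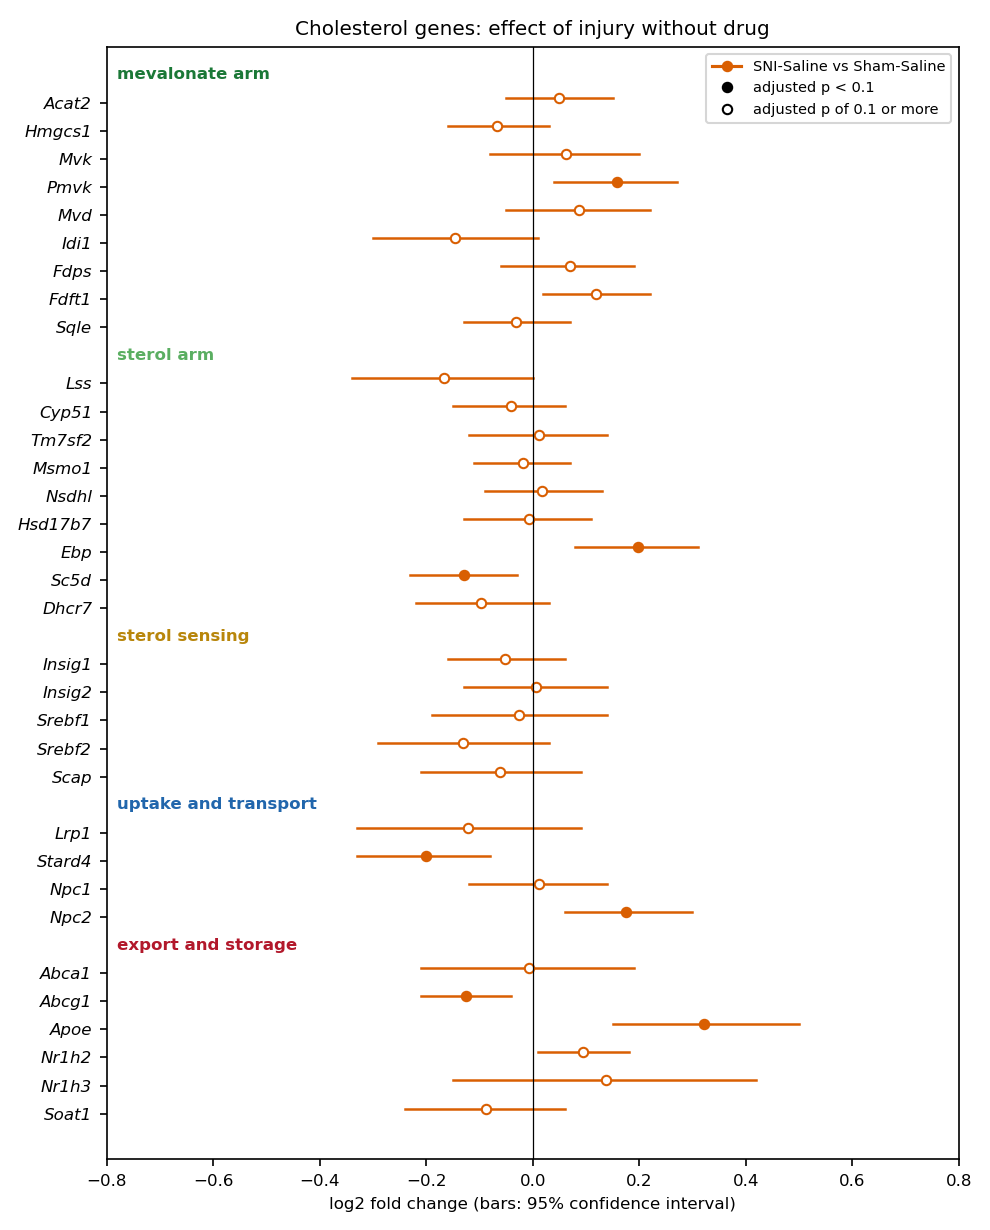
Log2 fold change with injury in saline-treated mice for each gene, grouped by role, with 95% confidence intervals and filled points for an adjusted p under 0.1. Most points lie within 0.2 of 0, with Apoe at 0.32 on the right and Stard4 at -0.20 on the left.

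Some mice were the highest or the lowest of their group in many synthesis genes. In SNI-DMI, replicate 1 was the lowest mouse for 14 of the 18 synthesis genes and replicate 3 the highest for 10. In Sham-Saline, replicate 1 was the highest for 9, in SNI-Saline replicate 4 was the lowest for 9, and in Sham-DMI replicate 1 was the lowest for 8 and the highest for 6. Of the other 15 genes, SNI-DMI replicate 1 was the lowest for 2 and replicate 2 for 8. How often each mouse was highest or lowest over all genes tested was not counted, so these patterns are not shown to be particular to these genes.

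The wider pathway was read from 85 further genes (84 tested), as counted only. Their values with the GC content and length trends removed were not examined. Over all genes, that removal took calls with DMI over both surgeries from 3385 to 1158 lower and from 3157 to 3695 higher. Under SNI it took them from 344 to 5 lower and from 282 to 46 higher. For DMI over both surgeries 24 of the 84 (28.6%) were called, 7 higher and 17 lower, beside 30.6% of all genes, and with injury 16 (19%), 6 higher and 10 lower, beside 12%. In the isoprenoid branch, which draws on the mevalonate arm, 2 of 10 genes were called higher with DMI and 3 lower, namely Nus1 (a subunit of the enzyme that makes dolichol precursors) at -0.21, Ggps1 (geranylgeranyl diphosphate synthase) at -0.19 and Pggt1b (a prenyltransferase subunit) at -0.43 on the log2 scale. Of 9 SREBP-processing genes 3 were called, all lower: Mbtps2, the protease that releases SREBP from the membrane, at -0.31 (adjusted p = 0.00348), Rnf139 at -0.25 and Erlin2 at -0.09. Of 13 other LXR-related and export genes 5 were called, all lower, led by Abca5 at -0.34, Abcg2 at -0.14 and Ncoa1 at -0.20.

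Among 17 further sterol transport and ester genes, 3 were higher and 2 lower with DMI, with Osbpl8 (a lipid exchanger) at -0.37 and Lamp2 (a lysosomal membrane protein) at -0.25, against Stard3 at 0.13. Among 14 other lipoprotein receptors and apolipoproteins the receptors Lrp6 and Vldlr were both at -0.24 and Clu (clusterin) at 0.21. Fatty acid synthesis, the branch of SREBP-1, had 2 of 16 called, Elovl6 at -0.14 and Acaca at -0.11. None of the 5 oxysterol enzymes tested was called. With injury, 7 of the 14 receptor and apolipoprotein genes were called, 5 higher and 2 lower, led by Sorl1 at -0.24, Lrpap1 at 0.18 and Clu at 0.32. Apoc1, which is named for the size of its value after it was seen, was at 0.78 ± 0.219 (adjusted p = 0.0458). Under SNI, DMI gave 4 calls of 84 (4.76%, beside 2.93% of all genes), all lower: Lamp2, Mbtps2, Rnf139 and Nus1, at -0.27, -0.36, -0.27 and -0.19.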

How the data were processed

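RNA from the L3 to L6 DRGs of 16 mice, 1 mouse per library, was sequenced by the authors as stranded mRNA in pairs of 50-base reads and aligned to mm10. The values used are raw counts of reads per gene, deposited by the authors for each library and not normalized. The submitters' processing notes name HISAT2, HTSeq and DESeq2. The versions of HISAT2 and HTSeq, the gene annotation and whether strand was used in counting are not given in the sources used here. Groups were taken from the labels, with 4 mice in each. CPM is a gene's count scaled to a common library size after TMM, and levels are divided by exon length only where genes are compared.

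Counts were fitted with edgeR 4.0.16 (quasi-likelihood test) in R 4.3.3, with 1 coefficient per group over all 16 libraries after filterByExpr kept 21371 of 52636 genes. Adjusted p is Benjamini-Hochberg over those genes, and intervals are 95%. Rows that name no gene (unassigned reads) were left out, and 79.56% to 81.17% of the reads in each table were on genes. Gene positions, exon lengths and GC content are from GENCODE (GRCm38), which held 52489 of the 52636 genes, and promoters are from RefSeq. Trends on GC content and log exon length were fitted per library by smooth curves (mgcv 1.9.3, basis size 8). They entered the same edgeR quasi-likelihood test as offsets. Further alternatives were DESeq2 1.42.0, other scalings and filters, 1 surrogate variable (sva 3.50.0), the libraries of 1 comparison alone, a replicate block and each library left out. Scripts were tested on simulated data.

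The 33 genes were listed by their role, and no measured value enters the list, but it and the pathway and marker lists were drawn up with earlier results of these data known. Values in every mouse are given for the 12 genes with the smallest p among those called for injury, for DMI under SNI, for DMI under sham or for DMI over both surgeries, and for Srebf2, Hmgcs1, Sqle, Insig1 and Npc1, and at most 3 other pathway genes with the smallest p are named per list and comparison.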

Additional observations from a re-analysis of the deposited data

Results flagged for a closer look

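In 2 of the 132 gene and group combinations 1 mouse stood far from the other 3, by a gap above Dixon's 95% critical value, as a share of the group's range. Chance flags about 1 in 20 such groups. Sc5d was at 201 CPM in Sham-Saline replicate 1, with the other 3 mice at 186 to 188 CPM (gap of 0.834 of the range). Stard4 was at 134 CPM in Sham-DMI replicate 2, with the other 3 mice at about 116 CPM (gap of 0.969 of the range).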

How the results depend on the processing

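The 14 calls for DMI over both surgeries gave 126 values under other settings, of which 117 kept the direction and the call, 7 kept the direction only and 2 reversed. Those 2 were Hsd17b7, at 0.02 with the GC content and length trends removed, with and without the replicate block. With 1 library left out, 209 of 224 values were kept and 15 lost the call. The number of genes called was 12 to 17 for DMI over both surgeries with 1 library left out, 8 to 13 for DMI under sham, 0 to 7 for DMI under SNI, 0 to 7 for injury, 3 to 10 for injury over both treatments and 0 to 0 for the difference of both DMI effects. Under the study's cut-offs these ranges were 0 to 1 for DMI over both surgeries, 0 to 1 under SNI, 1 to 4 under sham and 0 to 1 for injury. The count of 0 became 1 over both surgeries without Sham-Saline 2, SNI-Saline 2 or 4, Sham-DMI 2 or SNI-DMI 1, and under SNI without SNI-Saline 2, and Apoe was lost for injury without Sham-Saline 3 or 4 or SNI-Saline 1 or 2. Injury (7 genes) gave 4 without a filter on low counts, 3 with the replicate block, 0 with the trends removed and 0 with the trends removed and the block. DMI under SNI (1 gene) gave 7 with DESeq2, 8 with only the libraries of the comparison and 0 with the trends removed and the block. Injury over both treatments (6 genes) gave 3 without a filter, 2 with the trends removed and 2 with the trends removed and the block. Past the study's cut-offs, DMI under sham (1 gene) gave 2 with DESeq2. The cause was not tested. No called gene changed sign under another scaling.

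Replicate numbers were not shown to mark paired mice, although weak correlations cannot exclude pairing. The deviations of 24 same-numbered pairs correlated at -0.081 to 0.184, with 5 over 0.1. Their median was 0, against 0.0015 for pairs with different numbers, and 7 of 16 libraries correlated best with their own number. Same-numbered libraries were a minority of those in other groups that each could match, and the number of matches due by chance was not worked out. With the replicate block, 15 genes were called for DMI over both surgeries, 12 for DMI under sham, 1 for DMI under SNI, 5 for injury over both treatments and 0 for the difference. With the trends removed and the block the counts were 16 for DMI over both surgeries, 12 under sham and 0 for the difference. The number of mice limits which small differences could be called. Each p-value sets a difference between groups against counting error and the spread between mice within these 4 groups, estimated with information from all genes tested. It holds nothing on spread between the blocks of library numbers.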
